A study of Rattus norvegicus with 11 samples.

Results

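The genes described here are those of the cytochrome P450 family and of the reductase that serves it. They are the 75 rows of the deposited table of 17257 genes whose symbol begins with Cyp and a digit, or is Por. Members were chosen by symbol, and the authors' mean over all libraries was then used to divide them into detected and undetected ones, so that division is a description. Detected members, with a mean above 0, numbered 40, and 35 were listed at 0. The detected share was 53.3%, against 77.3% of all 17257 genes. The cells were ventricular myocytes of untreated wild-type Sprague Dawley rats of 3 to 4 months, isolated by Langendorff perfusion and left to attach for 45 minutes before freezing. The libraries of 5 females and 6 males are biological replicates according to the labels, and the comparison was between the sexes.

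Cytochrome P450 enzymes hold a haem group and insert oxygen into small molecules, among them drugs, fatty acids, sterols, steroid hormones, retinoids and vitamin D. Those in the endoplasmic reticulum receive their electrons from NADPH through Por, the cytochrome P450 reductase, whereas those in mitochondria receive them through ferredoxin and its reductase. Most drug-metabolizing members are known from liver, where several differ between male and female rats. In the heart the family is best known for turning arachidonic acid into epoxides and into hydroxylated products.

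Sex differences in the authors' deposited table were called at an adjusted p under 0.05. By this rule 3 members, Por, Cyp2e1 and Cyp4f6, were higher in females and 2 members, Cyp51 and Cyp2j4, were lower in females. Among all 13346 genes with a mean above 0, 6.71% were called higher in females, 7.76% lower and 14.5% in either direction, against 12.5% of the 40 detected members. With a mean of at least 10, 5 of 22 members were called, which is 22.7%, against 18.3% of 10519 genes, of which 8.49% were higher in females and 9.77% lower. Nothing is read from these shares about the family, which is described gene by gene. The median log2 fold (female over male) of the 22 members was -0.04, and that of the 10519 genes was -0.0037.

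The windows around the annotated starts of the 5 called members are shown because these genes carry the called differences in either direction. Each window runs from 250 bases before to 50 bases after the start in RefSeq's annotation of the assembly GRCr8, and 59 of the 75 members had such an entry. They lie at chr12:26635760-26636059 on the minus strand for Por, chr1:205269717-205270016 on the plus strand for Cyp2e1, chr7:12708329-12708628 on the minus strand for Cyp4f6, chr4:30991443-30991742 on the plus strand for Cyp51 and chr5:116322993-116323292 on the minus strand for Cyp2j4. Capitals mark matches on either strand to the TATA box TATAAA, the CCAAT box, the GC box GGGCGG, and TGACGT, the first 6 bases of the cyclic AMP response element. No matches overlapped in these windows.
Por: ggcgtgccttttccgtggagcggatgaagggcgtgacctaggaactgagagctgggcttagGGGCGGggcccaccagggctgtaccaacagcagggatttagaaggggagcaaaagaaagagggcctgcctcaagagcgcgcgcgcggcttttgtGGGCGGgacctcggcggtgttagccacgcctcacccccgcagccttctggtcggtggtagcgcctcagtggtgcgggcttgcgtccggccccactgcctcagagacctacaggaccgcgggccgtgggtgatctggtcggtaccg
Cyp2e1: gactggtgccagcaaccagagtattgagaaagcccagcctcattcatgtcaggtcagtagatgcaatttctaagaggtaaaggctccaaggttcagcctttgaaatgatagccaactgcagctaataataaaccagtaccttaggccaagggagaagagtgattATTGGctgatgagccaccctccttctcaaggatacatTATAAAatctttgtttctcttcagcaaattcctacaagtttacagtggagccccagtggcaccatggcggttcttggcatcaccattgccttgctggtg
Cyp4f6: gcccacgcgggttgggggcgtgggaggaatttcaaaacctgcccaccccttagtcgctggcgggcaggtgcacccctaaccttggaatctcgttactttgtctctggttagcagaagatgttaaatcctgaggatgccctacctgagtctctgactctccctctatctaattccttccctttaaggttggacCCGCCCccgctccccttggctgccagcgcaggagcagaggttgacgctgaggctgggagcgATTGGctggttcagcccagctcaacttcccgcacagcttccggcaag
Cyp51: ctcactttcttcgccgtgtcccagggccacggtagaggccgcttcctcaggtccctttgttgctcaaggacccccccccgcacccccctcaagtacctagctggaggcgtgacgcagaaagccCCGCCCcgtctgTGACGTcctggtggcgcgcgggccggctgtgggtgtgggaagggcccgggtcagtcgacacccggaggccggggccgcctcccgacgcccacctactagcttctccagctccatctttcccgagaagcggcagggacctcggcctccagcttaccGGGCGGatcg
Cyp2j4: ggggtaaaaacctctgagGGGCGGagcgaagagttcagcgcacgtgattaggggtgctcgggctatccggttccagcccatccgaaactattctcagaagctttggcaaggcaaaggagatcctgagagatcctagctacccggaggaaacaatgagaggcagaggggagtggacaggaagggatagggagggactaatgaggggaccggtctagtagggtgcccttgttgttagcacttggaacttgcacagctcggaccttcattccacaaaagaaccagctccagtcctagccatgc

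The windows differed in composition. Cyp2e1 had 1 CG pair and a GC content of 46%, and it alone of the 5 held TATAAA, which is present in 14.2% of the 33469 windows of this length. Por had 25 CG pairs at 66.3% GC and Cyp51 had 27 at 69% GC, while the median over all windows was 7 CG pairs and 51.7% GC. GGGCGG, present in 33.1% of all windows, occurred in Por, Cyp4f6, Cyp51 and Cyp2j4. CCAAT, present in 37.5%, occurred in Cyp2e1 and Cyp4f6, and TGACGT, present in 7.94%, in Cyp51. These matches describe letters and do not show binding.

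Por, the electron donor of the microsomal enzymes, was higher in females. Its mean was 3395 normalized counts in the female libraries and 1853 in the male libraries, with a log2 fold of 0.87 (adjusted p = 1.1e-06 by the authors' deposited table). For Por and 10 other members only group means could be used, since their reads per library could not be recovered from the table, so these means carry no SD here. Counts were not divided by transcript length, so levels are compared between sexes and not between genes.

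**Figure D1:**
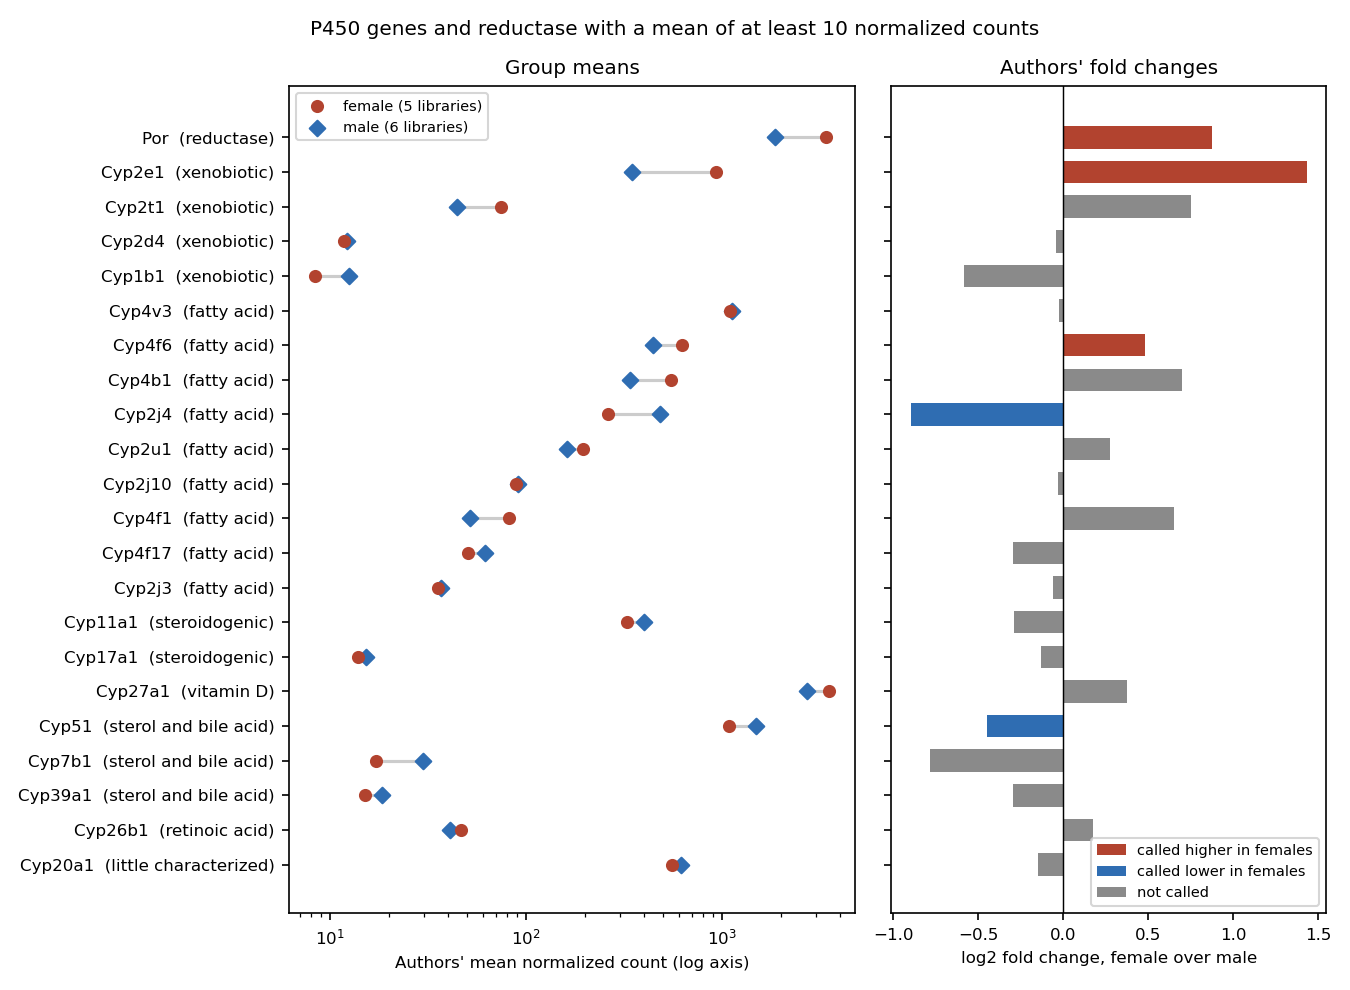
Left, the authors' mean normalized count of each member with a mean of at least 10 on a log axis, circles for 5 female and diamonds for 6 male libraries; right, the authors' log2 fold change of female over male. Genes are ordered by role, and the 5 coloured bars are the called members, from Cyp2e1 at 1.43 to Cyp2j4 at -0.90.

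The other carriers of electrons differed in direction. Of 12 measured genes of this list, Por included, 2 were called higher in females and 1 lower, beside 14.5% of all genes called in either direction, and the 11 with a mean of at least 10 had a median log2 fold of -0.16. List medians below are over genes with such a mean. Fdxr, the ferredoxin reductase that supplies mitochondrial P450 enzymes, had means of 153 in females and 74.8 in males, a fold of 2.05 (adjusted p = 0.0156 by the authors' deposited table). Its partner Fdx1, the ferredoxin that carries the electrons on, had means of 1054 and 1009 in females and males and an adjusted p of 0.923, and Fdx1l, a further ferredoxin, had means of 414 and 490 in females and males and an adjusted p of 0.465, all by the authors' deposited table. Cyb5r4, a cytochrome b5 reductase, was lower in females, with means of 209 in females and 372 in males (adjusted p = 0.0054 by the authors' deposited table). Cytochrome b5, a further electron donor to some P450 enzymes, is encoded by Cyb5a and Cyb5b. Their log2 fold changes were -0.07 and -0.23 (adjusted p = 0.898 and 0.535 by the authors' deposited table). Those of Cyb5r1, Cyb5r2 and Cyb5r3 were -0.16, -1.39 and 0.22. Cyb5r2 had means of only 3.48 in females and 9.13 in males. The log2 fold changes of the haem-binding progesterone receptor components Pgrmc1 and Pgrmc2 were -0.53 and -0.21. For Cyb5r1, Cyb5r2, Cyb5r3, Pgrmc1 and Pgrmc2 the adjusted p-values ran from 0.128 to 0.670 by the authors' deposited table.

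Members of the drug-metabolizing families Cyp1 to Cyp3, other than Cyp2j, Cyp2r1, Cyp2s1 and Cyp2u1, numbered 34, of which 12 were detected and 4 had a mean of at least 10. Cyp2e1, which oxidizes ethanol and ketone bodies, had a mean of 930 normalized counts in females and 345 in males by the authors' deposited table. The fold of Cyp2e1, 2.70, was the largest among the 22 members with a mean of at least 10 (adjusted p = 0.0018 by the authors' deposited table). Cyp2t1, a member of the Cyp2 family, had 36.1, 70.6, 66.0, 81.2 and 117 normalized reads in the 5 female libraries, against a lowest of 20.9, a median of 44.2 and a highest of 67.8 in the 6 male libraries. Of the females, 3 lay above every male and the groups overlapped. The log2 difference (female minus male) of Cyp2t1, on the scale of log2 of normalized reads plus 1, was 0.76 ± 0.356 (SE), with a limma adjusted p of 0.316.

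Cyp1b1, an enzyme induced through the aryl hydrocarbon receptor, had 7.05, 13.6, 21.1, 0 and 0 normalized reads in the female libraries and a lowest of 3.66, a median of 12.1 and a highest of 23.4 in the male libraries. Reads were thus absent from 2 female libraries and present in all 6 male libraries, and the groups overlapped. The log2 difference of Cyp1b1 was -1.22 ± 0.962 (SE), with a limma adjusted p of 0.594. Cyp2d4, known from rat brain, averaged 11.7 ± 11.6 in females (SD, n = 5) and 12.1 ± 11.3 in males (SD, n = 6). The spread of Cyp2d4 within each sex was about as large as its mean.

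Members of fatty acid hydroxylation and epoxidation numbered 19, with 12 detected, of which 1 was called higher in females and 1 lower. Over all genes with a mean above 0, 14.5% were called in either direction. Cyp4f6, of the family that adds a hydroxyl group at the end of fatty acids and of leukotriene B4, was 1.40-fold higher in females, with means of 622 in females and 445 in males (adjusted p = 0.0340 by the authors' deposited table). Its neighbour Cyp4f1, the next protein-coding gene in the RefSeq order on chromosome 7, had 123, 67.9, 84.2, 80.2 and 51.5 normalized reads in the female libraries, against a lowest of 43.4, a median of 46.6 and a highest of 67.1 in the male libraries. Cyp4f1 reads were higher in 4 of 5 female libraries than in every male library, and the remaining female library lay among the males. The log2 difference of Cyp4f1 was 0.61 ± 0.270 (SE), with a limma adjusted p of 0.294 and an exact permutation p of 0.0216 (two-sided), which was 0.245 after adjustment. The authors' deposited table gives Cyp4f1 an adjusted p of 0.175.

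Cyp4f17, further along the same cluster, averaged 50.3 ± 18 normalized reads in females (SD, n = 5) and 61.7 ± 35.3 in males (SD, n = 6). Its log2 difference was -0.19 and became 0.050 without male library f, which held 129 normalized reads against at most 60.9 in the other males. No source used here says how reads shared between similar Cyp4f copies were counted, so single values in this cluster are uncertain. Cyp4b1, a fatty acid hydroxylase, had means of 548 in females and 338 in males (adjusted p = 0.0970 by the authors' deposited table). Cyp4v3, the rodent counterpart of a human gene of inherited retinal lipid disease, had means of 1100 in females and 1120 in males (adjusted p = 0.965 by the authors' deposited table). Cyp2u1, a hydroxylase of long-chain fatty acids, had means of 195 in females and 161 in males (adjusted p = 0.563 by the authors' deposited table).

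The 3 measured members of the Cyp2j family, to which the epoxygenase of human heart belongs, had unequal values. Cyp2j4 was lower in females, with means of 260 in females and 484 in males, a log2 fold of -0.90 (adjusted p = 0.0050 by the authors' deposited table). Cyp2j3, its next protein-coding neighbour in the RefSeq order on chromosome 5, had 20.3, 51.6, 24.9, 53.5 and 26.8 normalized reads in the female libraries, against a lowest of 0, a median of 32.8 and a highest of 84.2 in the male libraries. The sexes overlapped over the whole female range, and male library d was the only library without a read of Cyp2j3. The log2 difference of Cyp2j3 was 0.58 and became -0.31 without that library. Cyp2j10 averaged 89.1 ± 46.2 normalized reads in females (SD, n = 5) and 91.1 ± 13.3 in males (SD, n = 6), and its log2 fold change was -0.03 in the authors' deposited table. Cyp2j10 reads in females ran from 30.8 to 145, which reached below and above all males, and its log2 difference of -0.21 became 0.11 without female library a. Whether the difference in Cyp2j4 is unlike that in its neighbours was not tested.

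**Figure D2:**
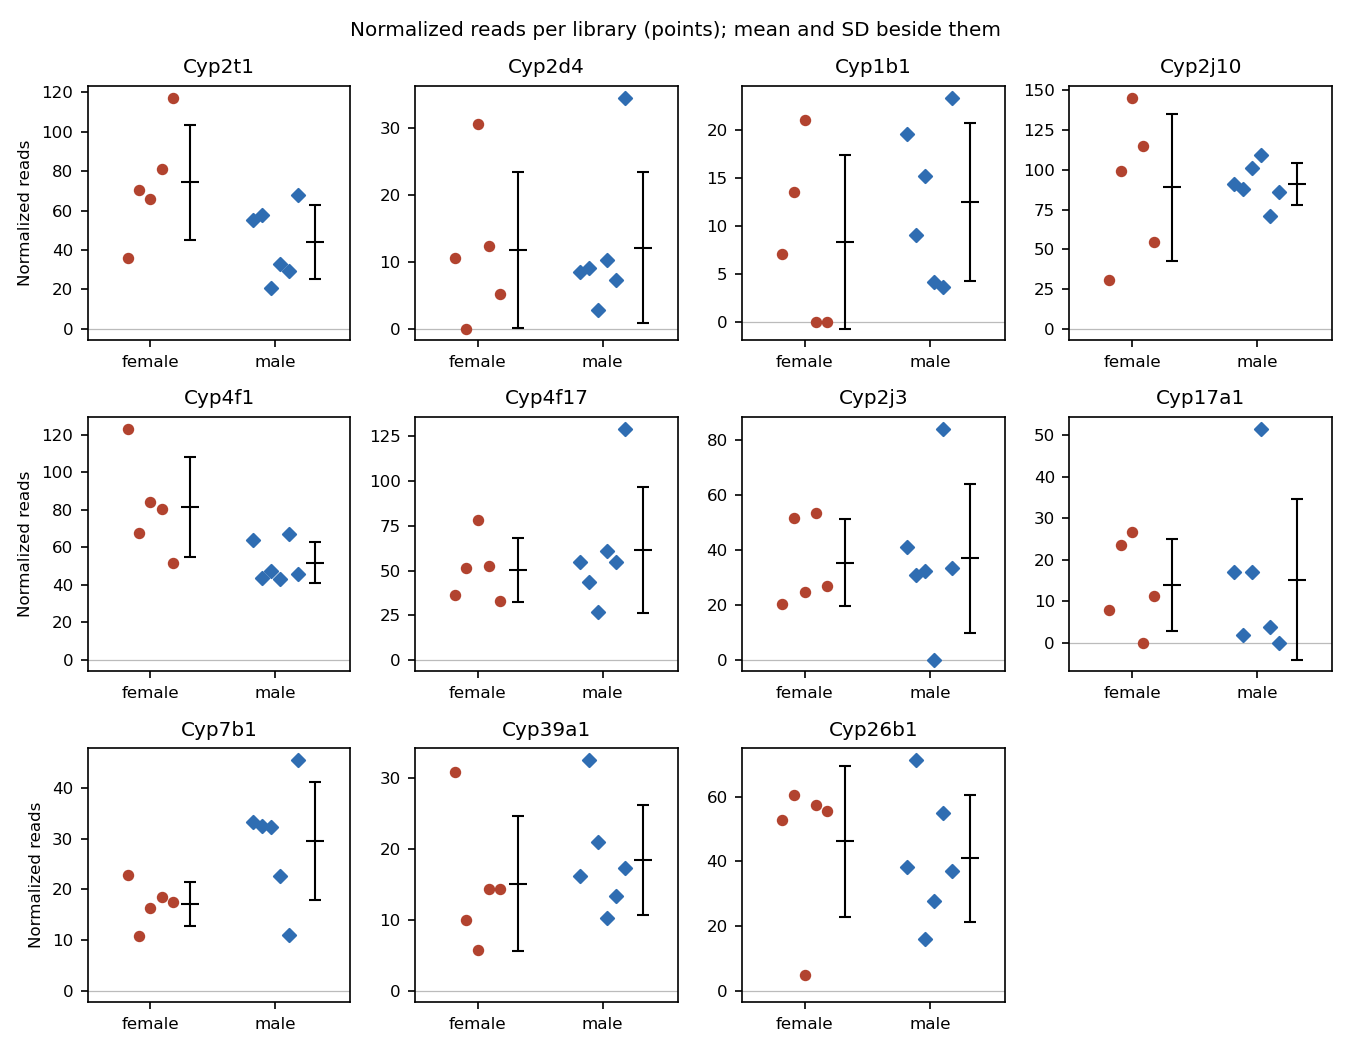
Normalized reads in each library for the 11 members with a mean of at least 10 whose reads could be recovered, circles for females and diamonds for males, with mean and SD beside them. In all 11 genes the sexes overlap, with the clearest shifts in Cyp4f1 and Cyp2t1, and single libraries stand apart in Cyp4f17, Cyp2d4, Cyp17a1 and Cyp26b1.

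Steroid-making members were mostly listed at 0. Of 7 members 3 were detected, and Cyp11b1, Cyp11b2, Cyp11b3 and Cyp19a1, which make corticosterone, aldosterone and oestrogens, were listed at 0. Cyp11a1, the mitochondrial enzyme that cleaves the cholesterol side chain, had means of 325 in females and 398 in males (adjusted p = 0.652 by the authors' deposited table). Star, which delivers cholesterol to that enzyme, had means of 4.68 in females and 2.05 in males in that table, and Hsd3b1 was listed at 0. Cyp17a1, which hydroxylates and cleaves steroids, had 7.93, 23.5, 26.8, 0 and 11.3 normalized reads in the female libraries, against a lowest of 0, a median of 10.4 and a highest of 51.6 in the male libraries. Both sexes thus held a library with no read of Cyp17a1, and male library d alone held 29.9% of its reads. The log2 difference of Cyp17a1 was 0.28 where the fold of the means was under 1, and it ran from -0.32 to 1.08 as single libraries were left out, with a negative value without female library b or c or male library b or f.

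Cyp27a1, a mitochondrial sterol hydroxylase that also acts on vitamin D, lay just outside the threshold. It had means of 3514 in females and 2711 in males, a log2 fold of 0.37 (adjusted p = 0.0518 by the authors' deposited table), while Cyp4f6, just inside, had 0.0340. Adjusted only over genes with a mean of at least 10, the p of Cyp27a1 was 0.0411. Of the other vitamin D members, Cyp2r1, a hydroxylase of the activation pathway, had 8, 3, 2, 0 and 0 reads in the female libraries and 0, 7, 7, 5, 6 and 6 reads in the male libraries. Cyp2r1 reads were therefore found in 3 of 5 females and in 5 of 6 males, in a range that overlapped. Cyp24a1, which breaks vitamin D down, was listed at 0.

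Cyp51, the lanosterol demethylase of cholesterol synthesis, was lower in females. It had means of 1083 in females and 1480 in males, a log2 fold of -0.45 (adjusted p = 0.0324 by the authors' deposited table). Among 20 genes of cholesterol synthesis and uptake, Cyp51 included, 1 was called higher in females and 4 lower, with a median log2 fold of 0.06. Among the 10519 genes at a mean of 10 or more, 8.49% were called higher in females and 9.77% lower. The others lower in females were Hmgcs1 (-0.63), which makes the precursor of mevalonate, Idi1 (-0.96), an isomerase of isoprenoid units, and Sqle (-1.05), the squalene epoxidase that also takes electrons from Por. By the authors' deposited table their adjusted p-values were 0.0120, 0.0088 and 0.0218. Fdps, the farnesyl diphosphate synthase, was higher in females by 1.33-fold with an adjusted p of 0.0383 there. Of the genes not called, Fdft1 and Sc5d had the highest means, and the authors' deposited table gives adjusted p-values of 0.567 and 0.995. The sterol regulators Srebf1 and Srebf2 were called higher in females, with folds of 2.32 and 1.42 (adjusted p = 0.0034 and 0.0315 by the authors' deposited table).

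Cyp7b1 and Cyp39a1, both hydroxylases of oxysterols, did not pass the test. Cyp7b1 had 22.9, 10.9, 16.3, 18.5 and 17.5 normalized reads in the female libraries, against a lowest of 11, a median of 32.5 and a highest of 45.6 in the male libraries. Of the 6 males, 4 lay above every female, and the other two lay within the female range. The log2 difference of Cyp7b1 was -0.67 ± 0.451 (SE), with a limma adjusted p of 0.531 and an exact permutation p of 0.0887 (two-sided). Cyp39a1 averaged 15.1 ± 9.52 normalized reads in females (SD, n = 5) and 18.5 ± 7.79 in males (SD, n = 6). Cyp8b1, a bile acid hydroxylase of liver, was listed at 0, and Cyp7a1, the rate-limiting enzyme of bile acid synthesis, had 1 read over the 11 libraries together.

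Cyp26b1, which breaks down retinoic acid, had 52.9, 60.6, 4.78, 57.6 and 55.6 normalized reads in the female libraries, against a lowest of 16.2, a median of 37.7 and a highest of 71.5 in the male libraries. Female library c lay below every other library, and the remaining 4 females lay close together within the male range. The log2 difference of Cyp26b1 was -0.06 where the fold of the means was 1.13, and it was 0.60 without female library c, with a limma adjusted p of 0.520 there, and also positive without male library b or e. Cyp20a1, whose substrate is little known, had means of 555 in females and 615 in males (adjusted p = 0.786 by the authors' deposited table).

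Over the 11 members with a mean of at least 10 and recovered reads, limma called 0 at an adjusted p under 0.05, against 0.255% of 1958 genes tested the same way. At an unadjusted p under 0.05 limma had 2 of the 11, Cyp4f1 and Cyp2t1, against 15.3% of the 1958 genes, and the exact permutation test had 1, Cyp4f1, against 14.5%. After adjustment the exact test called 0 members and 0% of the 1958 genes. The exact p cannot fall below a floor set by the number of assignments of sex. After adjustment over 1958 genes, a call would need many genes at or near that floor together. Nothing is therefore read from the absence of calls by the adjusted exact test. The sexes overlapped in all 11 members and in all but 2.04% of the 1958 genes, so overlap does not set the members apart. The genes with recovered reads are those with low means, and the authors' adjusted p called 3.58% of them.

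The remaining 18 detected members had means under 10, and single libraries often carried their reads. Cyp4f37 was the only one of them with reads in all 11 libraries, 11, 4, 23, 4 and 8 in the females and 4, 3, 5, 2, 16 and 2 in the males. Cyp1a1, the classical target of the aryl hydrocarbon receptor, had 0, 1, 15, 0 and 11 reads in the female libraries and 13, 17, 0, 0, 0 and 23 in the male libraries. It was thus absent or nearly so from 3 libraries of each sex and present with 11 to 23 reads in the others.

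Reads of 9 of these 18 members were found in both sexes, of 5 in females alone and of 4 in males alone, and for 6 of the 18 all reads lay in 1 library. How many of all genes with a mean under 10 were read in 1 sex alone is not given here. These counts are therefore not read as a trait of the family or as expression limited to 1 sex. Beside Cyp4f37, Cyp1a1, Cyp2r1 and Cyp2c11, the members read in both sexes were Cyp46a1, a cholesterol hydroxylase of brain, with 15 reads in females and 18 in males, Cyp2s1 with 19 and 6 in females and males, Cyp26a1, a retinoic acid hydroxylase, with 10 and 4, Cyp2d3 with 7 and 8, and Cyp2d1 with 3 and 9. Cyp2c12, which in rat liver is known as a female form, was named after its values were seen. It had 0, 1, 0, 3 and 8 reads in the female libraries and 0 in each of the 6 male libraries (adjusted p = 0.387 by the authors' deposited table). Its male counterpart in rat liver, Cyp2c11, had 2 reads in 1 female library and 2 reads in 1 male library. The others seen in females alone, likewise named after their values were seen, were Cyp27b1 with 10 reads, 9 of them in 1 library, Cyp2a3 with 5, Cyp4f18 with 2 and Cyp4f40 with 1. Those seen in males alone were Cyp2c22 with 8 reads in 2 libraries, Cyp21a1 and Cyp2c24 with 2 each and Cyp7a1 with 1, and male library f held reads of all 4. By the authors' adjusted p 0 of the 18 were called. Of the 1932 genes called among all with a mean above 0, 1921 had a mean of at least 10. Calls under 10 were thus rare in any gene, and nothing is read from the 0 here. With so few reads, often in few libraries, whether the sexes differ in these members cannot be decided.

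**Figure D3:**
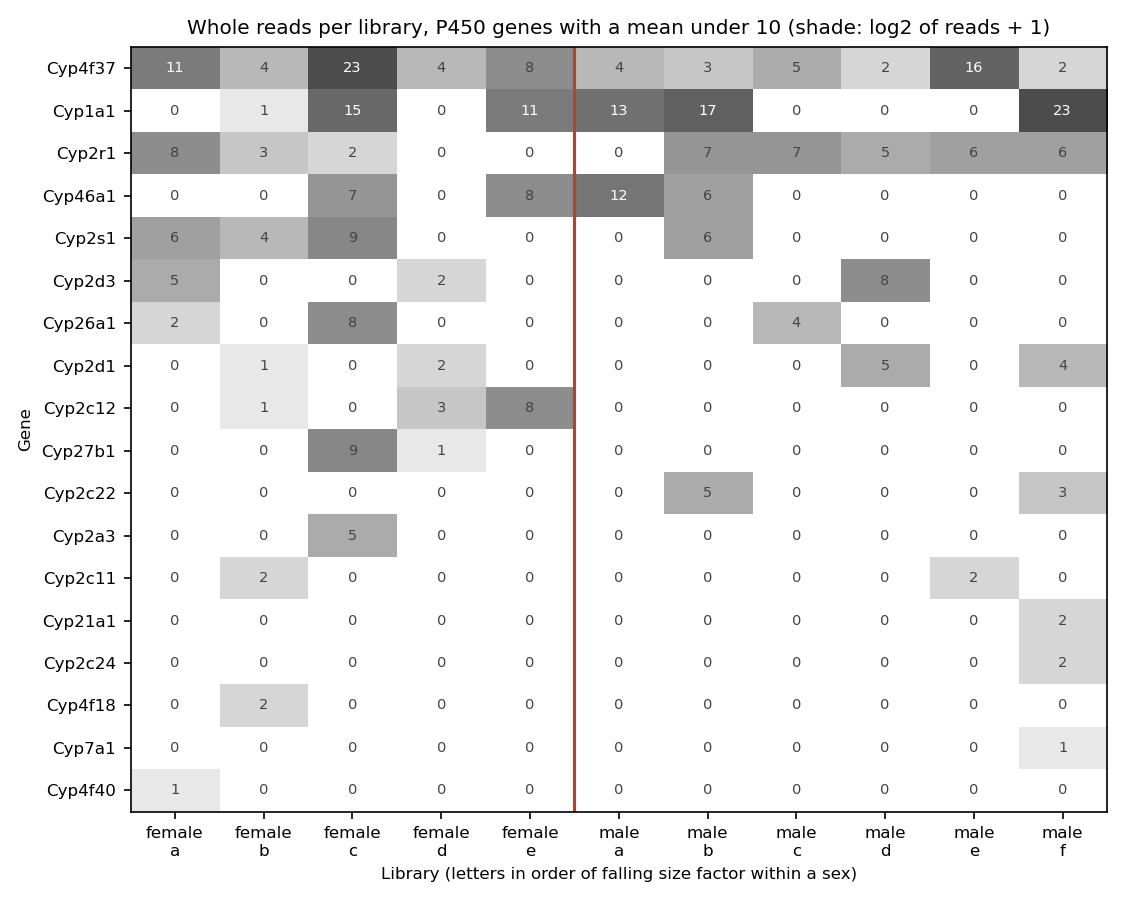
Whole reads in each of 5 female and 6 male libraries (columns) for the 18 detected members with a mean under 10 (rows), shaded by log2 of reads plus 1. Reads of Cyp1a1 sit in some libraries of each sex and are 0 in others, and the lower rows hold reads in 1 or 2 libraries.

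The 35 members listed at 0 included whole subfamilies. All 6 Cyp2b, all 5 Cyp3a, all 4 Cyp4a and all 3 Cyp11b rows were listed at 0, as were 4 of 8 Cyp2c, 2 of 5 Cyp2d, 2 of 3 Cyp2a and 2 of 8 Cyp4f rows. The other rows at 0 were Cyp1a2, Cyp2f4, Cyp2g1, Cyp4x1, Cyp8b1, Cyp19a1 and Cyp24a1. Among the rows at 0, Cyp2b and Cyp3a enzymes are known as inducible drug-metabolizing enzymes of liver, and Cyp4a enzymes as fatty acid hydroxylases of liver and kidney. A value of 0 is not read here as absence, because Ndufa1, a respiratory chain subunit of every cell, and Col1a2, a collagen chain of fibroblasts, were listed at 0 too. Subfamily members that are close in sequence can share reads, which limits the values of all these rows.

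Genes that surround the P450 enzymes were counted by the same call. Of 13 genes that make or break down haem, 0 were called, against 14.5% of all genes with a mean above 0, and Alas1, the first enzyme of the pathway, had a log2 fold of 0.01 (adjusted p = 1 by the authors' deposited table). Fech, which inserts the iron, had -0.01 there. At an unadjusted p under 0.05 by the authors' deposited table there were 2 of the 13. The share of all genes at that unadjusted threshold is not given here, so nothing is read from this count.

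Of 20 detected regulators of P450 transcription, 6 were called higher in females and 0 lower, with a median log2 fold of 0.49. Among all genes with a mean above 0, 6.71% were called higher in females and 7.76% lower, and no test of the list against them was made. Beside Srebf1 and Srebf2 these were the oxysterol receptors Nr1h2 (1.53-fold) and Nr1h3 (1.77-fold) and the retinoid X receptors Rxra (1.46-fold) and Rxrb (1.37-fold), partners of many nuclear receptors, in the authors' deposited table. Rxrg and Ppara, of highest mean among the others, had adjusted p-values of 0.592 and 0.988 there. Ahr and Arnt, whose products together drive Cyp1a1 and Cyp1b1, had log2 fold changes of -0.09 and 0.04 and adjusted p-values of 0.866 and 0.975, and were named after their values were seen.

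Among 13 genes of eicosanoid metabolism, 2 were called higher in females and 0 lower, with a median of 0.16, where 14.5% of all genes with a mean above 0 were called. These were Ephx1, a microsomal epoxide hydrolase, with a log2 fold of 0.67 and Ptges2, a prostaglandin E synthase, with 0.42 in the authors' deposited table. Ephx2, the soluble hydrolase that opens arachidonic acid epoxides, had means of 1151 in females and 904 in males and an adjusted p of 0.220 there. Ptges3, a further prostaglandin E synthase gene, had a log2 fold of -0.32 (adjusted p = 0.246 by the authors' deposited table).

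Of 20 detected phase 2 and drug handling genes, 5 were called higher in females and 1 lower, with a median of 0.31, beside 6.71% higher and 7.76% lower among all genes. The glutathione transferases Gstm1, Gstm2 and Gstp1 were 1.57-fold, 1.63-fold and 1.65-fold higher in females, and the flavin monooxygenases Fmo1 and Fmo5, which oxidize drugs beside P450 enzymes, were 1.93-fold and 1.88-fold higher, by the authors' deposited table. The efflux pump Abcg2 had a log2 fold of -1.09 there. Mgst3, a microsomal glutathione transferase of highest mean among the others, was not called (adjusted p = 0.494 by the authors' deposited table).

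Of 20 detected steroid and retinoid enzymes and binding proteins outside the family, 3 were called higher in females and 1 lower, with a median of 0.24, beside 14.5% of all genes called in either direction. Sts, the steroid sulphatase, had a fold of 1.79, Dhrs3, a retinal reductase, 1.42 and Crabp2, a retinoic acid binding protein, 3.20, while Lrat, which stores retinol as esters, had a log2 fold of -1.28 in the authors' deposited table. Hsd17b10 and Hsd17b4, of highest mean among the others, were not called (adjusted p = 0.136 and 0.395 by the authors' deposited table). All these lists were drawn up with earlier results of these data known, and their counts are given as descriptions.

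**Figure D4:**
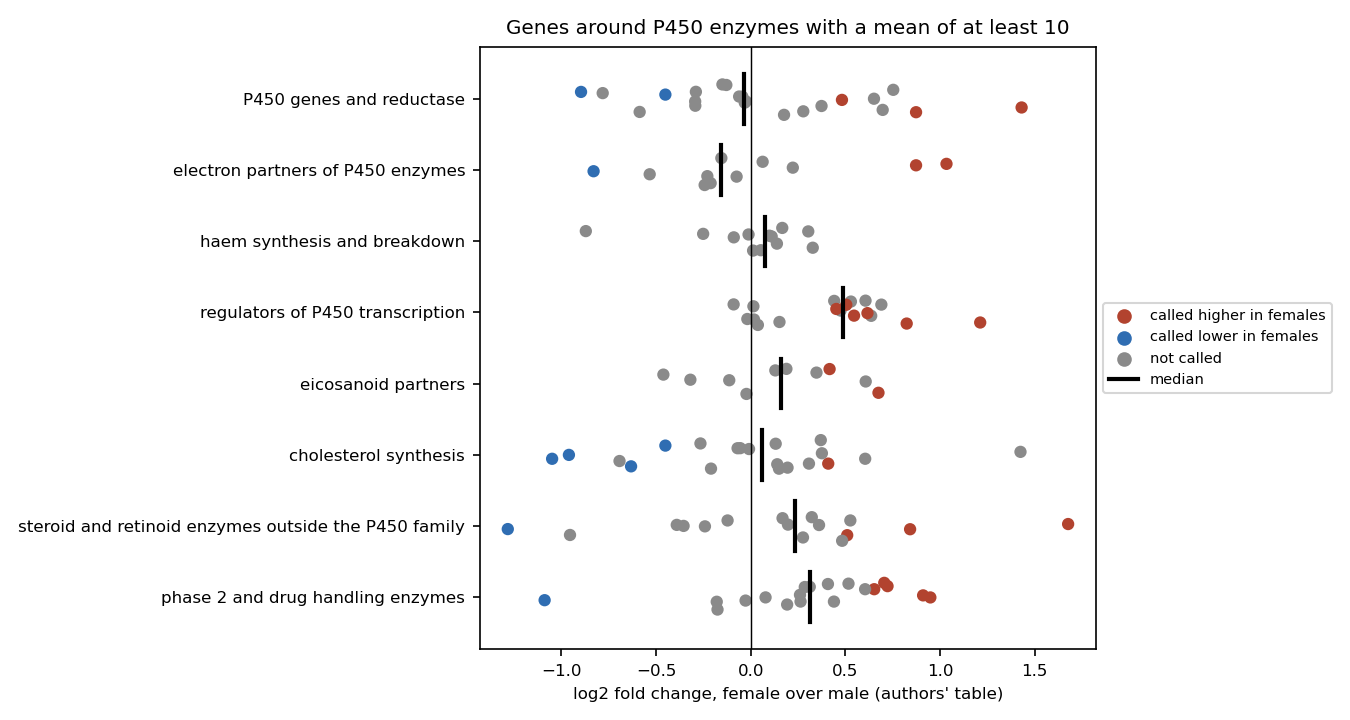
Authors' log2 fold change of female over male for each gene with a mean of at least 10 in the P450 family and in 7 lists of related genes, coloured where called, with a bar at the median of the genes shown. The regulators sit furthest to the female side, with a median of 0.49, and the P450 row is centred near 0 with called genes on either side.

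Markers of other cells were measured in the same table. For each list the count called is to be read beside the 14.5% of all genes with a mean above 0. Of 10 cardiomyocyte markers 2, Myh6 and Ryr2, were called higher in females, with a median log2 fold of 0.09. The cardiomyocyte markers had summed means of 3133839 in females and 2583975 in males, Myh6 being highest. Much of the gap between these sums lay in Myh6 alone, with means of 1330868 in females and 831771 in males. Of 7 detected mesothelial markers 2, Msln (2.15-fold) and Krt19 (2.73-fold), were called higher in females, with a median of 0.71. Their list summed to 898 in females and 665 in males, and Wt1, its gene of highest mean, had a log2 fold of -0.30 by the authors' deposited table. Of 9 detected fibroblast markers 2, Col1a1 (-0.91) and Postn (-1.30), were called lower in females, with a median of -0.57. The fibroblast list summed to 5970 in females and 8739 in males, and Dcn, its gene of highest mean, had a log2 fold of -0.52 (adjusted p = 0.524 by the authors' deposited table). Of 9 macrophage and leukocyte markers 1, Mrc1 (-1.18), was called lower in females, with a median of -0.32, and the list summed to 873 in females and 1158 in males with Lyz2 highest. Their part in the differences of the P450 genes was not tested, and in bulk samples fewer cells of a type and less RNA per cell cannot be told apart.

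Of 10 endothelial markers, Egfl7 and Vwf were called higher in females and Emcn lower, with a median of 0.08 and Pecam1 highest. Among 10 smooth muscle and pericyte markers 1 was called higher in females, Des, which cardiomyocytes also express and which had the highest mean of the list, and the median was 0.32. Of 8 detected hepatocyte markers 0 were called, and 0 had an unadjusted p under 0.05. The hepatocyte list summed to 959 in females and 792 in males, most of it Ttr, with means of 710 in females and 609 in males, and Tf, with 245 in females and 173 in males by the authors' deposited table. Of the other hepatocyte markers Alb, Apoa1, Apob, Apoc3, Hp and Serpina1 had means under 10 in both sexes, and Fgb and Ahsg were listed at 0. Of 8 detected adipocyte markers 1 was called higher in females, Slc2a4, the glucose transporter that cardiomyocytes also express and the highest of the list. Fabp4 had means of 3006 in females and 3818 in males (adjusted p = 0.134 by the authors' deposited table), and Pparg had 196 in females and 203 in males. Adipoq, a hormone of fat cells, had 3.64 in females and 0.603 in males by the authors' deposited table, and Retn was listed at 0. Of 7 detected adrenal cortex markers 1 was called higher in females, Inha, the highest of the list. Scarb1 had means of 186 in females and 173 in males, Mrap 32.3 in females and 24.8 in males, and Melk 5.02 in females and 19.3 in males (adjusted p = 0.0769 for Melk by the authors' deposited table). Nr5a1, Nr0b1 and Hsd3b1 were listed at 0. Of 9 detected erythroid markers, with Slc4a1 highest, 0 were called, and 0 had an unadjusted p under 0.05. Nothing is read from the counts at an unadjusted p, since the share of all genes at that threshold is not given here. Whether RNA of these cells bears on the P450 values was not tested, and markers other than the called and the highest were named after their values were seen.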

How the data were processed

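RNA with an integrity number of 9 or more was rid of ribosomal RNA and made into stranded paired-end libraries from 650 ng, per the labels. The submitters' processing notes name Trimmomatic 0.32, TopHat2 2.0.12, HTSeq 0.6.1, FastQC, DESeq and the build rn6. Their settings, strand counting and annotation are not given in the sources used here. The deposited table has 17257 genes and holds mean normalized counts (a signal: gene counts over size factors, by the authors) for all libraries, group A and group B. It also holds the deposited fold as a ratio, its log2 value, a p-value and an adjusted p-value. The overall mean had the weights 6 for A and 5 for B, within 1e-09, in 13346 genes, and the opposite weights in 0, so A was taken as males and B as females. Means of the Y-linked Eif2s3y were 0.578 in females and 2215 in males.

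Reads per library were worked out from the digits of the group means, which are sums of whole reads over size factors, with Python 3.11.15 and numba 0.67.0. Means up to 100 in females and 95 in males were searched. A single solution came out for 4487 of 4487 genes in females and 4442 of 4468 in males, and the other 26 were left out. False sums, shifted by 1e-09 to 2e-09 of their size, had a solution in 0.108% of cases in females and 5.08% in males. Size factors were 0.972 to 1.14 in females and 0.811 to 1.17 in males. Over the 4785 detected genes known in both sexes, those with a mean of 0 in 1 sex included, the libraries held 78942 to 88560 reads in females and 69246 to 98799 in males. Full depth is not known. Libraries have letters by falling size factor within their sex, and no replicate numbers.

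Log2 of normalized reads plus 1 was tested with limma 3.58.1 in R 4.3.3 for the 1958 recovered genes with a mean of at least 10, with Benjamini-Hochberg adjustment over them, and with an exact permutation test over 462 assignments of sex. The scripts were tested on simulated data. Members and lists were chosen with earlier results of these data known. The text names called members, members with a mean of at least 10, the 3 highest below it, the electron partners, per related list the called genes and the 2 others of highest mean, except 1 gene that is not reported here, and per marker list the count called, the median and the highest gene. Other genes were named after their values were seen. Other thresholds, adjustments, pseudocounts, filters and left-out libraries were tried. Of the 75 members, 74 matched a RefSeq symbol.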

Additional observations from a re-analysis of the deposited data

Results flagged for a closer look

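The 11 members with recovered reads and a mean of at least 10 gave 22 groups of libraries, 1 per sex and gene. In 4 of the 22 a single library stood far from the others of its sex. How often such gaps arise by chance in read counts as variable as these was not tested, so no excess is read from this. Cyp26b1 had 4.78 normalized reads in female library c, and the nearest other female had 52.9. Cyp4f17 had 129 normalized reads in male library f, where the nearest male had 60.9, and Cyp2d4 had 34.5 in the same library, where the nearest had 10.3. Cyp17a1 had 51.6 normalized reads in male library d, and the nearest male had 17.1.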

How the results depend on the processing

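No paired analysis was possible because the recovered libraries carry no replicate number. With the threshold at 0.01, 1 member of the authors' deposited table was lower in females, Cyp2j4, and 2 were higher, Por and Cyp2e1, so that Cyp51 and Cyp4f6 were lost. At 0.1 there were 5 higher in females, with Cyp27a1 and Cyp4b1 added. A stricter threshold can only keep or lower a count, and calls in the related lists also fell at 0.01. Shares over all genes at these other thresholds and adjustments are not given here. Nothing about the members or the lists is therefore read from the changes in count. The regulators then had 2 higher in females, the cholesterol list 1 lower and 0 higher, and the eicosanoid list 0. The steroid and retinoid list had 1 higher and 0 lower, the phase 2 list 3 higher and 0 lower. The electron partners had 1 higher and 1 lower. The number of detected members was 22 with a mean of at least 10, against 40 with a mean above 0. Adjusting over genes with a mean of at least 10 or 50 gave 4 members higher in females and 2 lower. Rows whose older symbol matches the rule added Arfip2 and Ppil3, which encode no P450, and no call. limma called 0 members under every pseudocount, filter and left-out library tried, and the smallest adjusted p of a member, 0.243, came without female library e. With a pseudocount of 5 the log2 difference of Cyp26b1 was 0.0079. Leaving out 1 library at a time, the log2 difference changed sign in Cyp17a1 (-0.32 to 1.08), Cyp26b1 (-0.29 to 0.60), Cyp2d4 (-0.90 to 0.35, the highest without female library b), Cyp2j10 (-0.44 to 0.11), Cyp2j3 (-0.31 to 0.97) and Cyp4f17 (-0.40 to 0.050, the highest without male library f), and in 0 of the other 5 members. The causes were not tested. The called members have group means only, so no library could be left out for them.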
